A study of Mus musculus with 2 samples.

Results

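The genes examined are 10 components of VEGF and angiopoietin signalling, the ligands and receptors through which blood and lymphatic vessels grow and are kept stable, taken from a mouse prostate tumour count table by an exact match of the gene symbol. All 10 were found among the 27376 genes of the table, each as a single entry. They comprise the ligands Vegfa, Vegfb, Vegfc and Pgf, the receptors Kdr, Flt1 and Flt4, and the angiopoietin system of Tek, Angpt1 and Angpt2. RNA sequencing was done on prostate tumour tissue of mice of 2 genotypes, Met_Bcat and Bcat_Only, both aged 16 months, with 1 library per genotype. The series title places the comparison within a question about MET, the receptor of hepatocyte growth factor, and beta-catenin in prostate tumour formation. Both genotype names carry Bcat, so a beta-catenin alteration is shared by them as far as the names state. The heading of the Bcat_Only column reads Bcat_ex3Plus_PB_Cre, which names a Cre driver called PB, whereas the heading of the Met_Bcat column names no allele. The alleles are not described further in the labels, nor is whether animals were pooled or which cells other than the tumour were dissected.

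Assigned reads came to 20117724 in Met_Bcat and 19301062 in Bcat_Only. Levels are given as CPM, reads per 1000000 of the TMM-scaled library size, and as RPKM, CPM per kilobase of the deposited exon length, where genes are compared with each other. For a gene to count as higher or lower in Met_Bcat, its mean level had to reach 1 CPM, and the end of its exact 95% interval that lies closer to equality, called the near end here, had to be 2-fold or more away. With 1 library per genotype the difference has no replicate check and no test, and each interval covers counting error between these 2 libraries only. The genes named by the genotypes differed little in total reads. Met stood at 166 CPM in Met_Bcat and 169 CPM in Bcat_Only (log2 ratio −0.03, −0.10 to 0.04), and Ctnnb1, the beta-catenin gene, at 974 CPM in Met_Bcat and 981 CPM in Bcat_Only (log2 ratio −0.01, −0.04 to 0.02). The signs of both depend on the scaling, and neither value checks an allele that leaves the gene's total reads alike. In whole tissue, fewer cells of a type and less RNA per cell cannot be told apart.

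VEGF ligands are secreted by epithelial, stromal and immune cells and act on receptor tyrosine kinases that lie mainly on endothelial cells. VEGFA signals for vessel growth chiefly through VEGFR2, the product of Kdr, while VEGFR1, the product of Flt1, binds VEGFA, VEGFB and PlGF with high affinity and also exists as a soluble decoy. VEGFC acts on VEGFR3, the product of Flt4, which is best known in lymphatic vessels. The angiopoietins bind TIE2, the product of Tek, where ANGPT1, made largely by mesenchymal and perivascular cells, stabilises vessels and ANGPT2, made largely by endothelium, counteracts it in many settings.

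Angpt1 and the receptor genes Flt4, Tek and Kdr were lower in the Met_Bcat tumour library, while Vegfa, Vegfb and Vegfc differed by less than 2-fold. Of the 10 genes, 4 were at least 2-fold lower in Met_Bcat by the near end of the interval (Angpt1, Flt4, Tek and Kdr) and 0 were at least 2-fold higher. Over the 14354 genes that reached 1 CPM on average, the same rule gave 14.6% lower and 4.42% higher. All 10 genes passed the minimum level. Their median log2 ratio, computed on CPM plus 0.5, was −1.0, beside 0.030 for all genes tested, whose quartiles were −0.53 and 0.33. The median was −0.13 for the 4 VEGF ligands, −1.25 for the 3 VEGF receptors and −1.72 for Tek and the 2 angiopoietins.

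**Figure D1:**
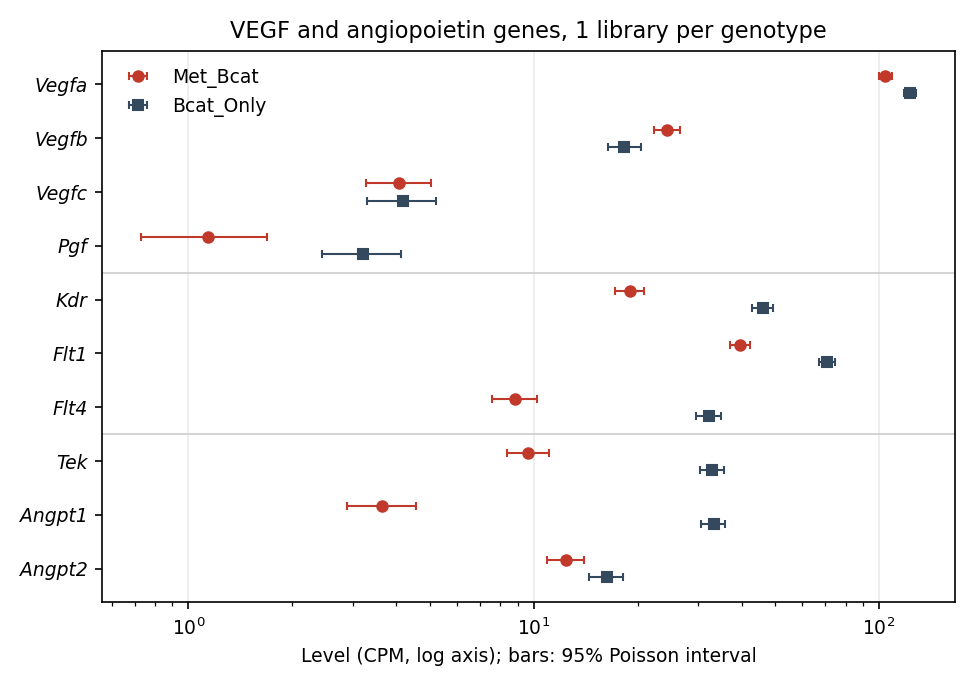
Level of each gene in CPM on a log axis, with the Met_Bcat library as red circles and the Bcat_Only library as dark squares, and bars for the 95% Poisson interval of each library's reads. The intervals of the 2 libraries overlap for Vegfc and are apart for the other genes, with Vegfb alone higher in Met_Bcat.

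Among the ligands, Vegfa was the most abundant of all 10 genes in either library. Vegfa (ENSMUSG00000023951, mm9 chromosome 17, 46153942 to 46169326, minus strand) had 2197 reads or 104 CPM in Met_Bcat and 2261 reads or 123 CPM in Bcat_Only. The counting intervals of the libraries did not overlap, yet the difference was small, 1.18-fold lower in Met_Bcat (1.11 to 1.25). The ratios of 35.1% of all tested genes lay below that of Vegfa, so it sat inside the interquartile range of the transcriptome.

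Vegfb, a VEGFR1 ligand linked to cell survival and fatty acid uptake, was the exception in direction. Vegfb (ENSMUSG00000024962, chromosome 19, 7056963 to 7062141, minus strand) had 514 reads or 24.4 CPM in Met_Bcat and 338 reads or 18.3 CPM in Bcat_Only. It was 1.33-fold higher in Met_Bcat (1.16 to 1.53), below the 2-fold rule. Under TMM sizes it was the only one of the 10 genes whose interval lay wholly above no difference. With libraries scaled to luminal epithelial markers, its log2 ratio was 0.02 (−0.18 to 0.22), an interval that includes no difference. Vegfc (ENSMUSG00000031520, chromosome 8, 55162886 to 55271808, plus strand) had 86 reads or 4.08 CPM in Met_Bcat and 77 reads or 4.18 CPM in Bcat_Only. Its log2 ratio of −0.03 (−0.50 to 0.43) held no difference within the interval, and its sign was the opposite with libraries scaled by total reads or by upper quartiles.

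Pgf, which encodes placental growth factor, a VEGFR1 ligand, was the scarcest of the 10 genes. Pgf (ENSMUSG00000004791, chromosome 12, 86507589 to 86518246, minus strand) had 24 reads or 1.14 CPM in Met_Bcat and 59 reads or 3.20 CPM in Bcat_Only. The point estimate was 2.81-fold lower in Met_Bcat (1.72 to 4.73), and at this depth the near end of the interval fell short of 2-fold. Per exon length, Vegfa made up 57.3% of the summed RPKM of the 4 ligands in Met_Bcat and 64.6% in Bcat_Only. The share of Vegfb was 35.9% in Met_Bcat and 25.8% in Bcat_Only, that of Vegfc 5.08% in Met_Bcat and 4.98% in Bcat_Only, and that of Pgf 1.70% in Met_Bcat and 4.58% in Bcat_Only.

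Ratios of 2 genes within a library do not depend on how the libraries are scaled. Reads of Vegfb per kilobase were 0.626 of those of Vegfa in Met_Bcat and 0.40 in Bcat_Only, a 1.57-fold higher ratio in Met_Bcat (exact conditional 95% interval 1.34 to 1.82). The ratio of Pgf to Vegfa was 0.0296 in Met_Bcat and 0.0708 in Bcat_Only, 2.39-fold lower in Met_Bcat (1.46 to 4.03). For Vegfc to Vegfa the ratios were 0.0886 in Met_Bcat and 0.0771 in Bcat_Only, with an interval of 0.830 to 1.59 around a 1.15-fold difference that includes none.

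Of the 3 VEGF receptor genes, Flt4 and Kdr passed the rule as lower in Met_Bcat and Flt1 did not. Flt4 (ENSMUSG00000020357, chromosome 11, 49422765 to 49466241, plus strand) had 186 reads or 8.83 CPM in Met_Bcat and 592 reads or 32.1 CPM in Bcat_Only, and was 3.64-fold lower in Met_Bcat (3.08 to 4.32). Kdr (ENSMUSG00000062960, chromosome 5, 76328852 to 76374483, minus strand) had 400 reads or 19.0 CPM in Met_Bcat and 847 reads or 46.0 CPM in Bcat_Only, and was 2.42-fold lower (2.15 to 2.74). The call of Kdr ended when library sizes were taken as total reads, where it was 2.21-fold lower (1.96 to 2.49). Flt1 (ENSMUSG00000029648, chromosome 5, 148373180 to 148537587, minus strand) had 835 reads or 39.6 CPM in Met_Bcat and 1302 reads or 70.7 CPM in Bcat_Only, 1.78-fold lower (1.63 to 1.95) and short of the rule. The table has 1 value for Flt1, so the membrane receptor and the soluble decoy are counted together.

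Because of these unequal differences the make-up of the receptor set was not the same in the 2 libraries. Flt1 reads per kilobase were 1.31 of those of Kdr in Met_Bcat and 0.966 in Bcat_Only, a ratio 1.36-fold higher in Met_Bcat (1.17 to 1.58). Flt4 to Kdr stood at 0.411 in Met_Bcat and 0.618 in Bcat_Only, 1.5-fold lower in Met_Bcat (1.22 to 1.85). Flt1 held 48.2% of the summed RPKM of the 3 receptors in Met_Bcat and 37.4% in Bcat_Only. Kdr held 36.7% in Met_Bcat and 38.7% in Bcat_Only, and Flt4 15.1% in Met_Bcat and 23.9% in Bcat_Only.

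The angiopoietin system held the widest difference among the 10 genes. Angpt1 (ENSMUSG00000022309, chromosome 15, 42256273 to 42508523, minus strand) had 77 reads or 3.65 CPM in Met_Bcat and 611 reads or 33.2 CPM in Bcat_Only. It was 9.08-fold lower in Met_Bcat (7.15 to 11.7), and 5.25% of all tested genes had a lower ratio. Tek (ENSMUSG00000006386, chromosome 4, 94405980 to 94541667, plus strand) had 203 reads or 9.63 CPM in Met_Bcat and 606 reads or 32.9 CPM in Bcat_Only, 3.41-fold lower in Met_Bcat (2.91 to 4.02). Angpt2 (ENSMUSG00000031465, chromosome 8, 18690263 to 18741562, minus strand) had 261 reads or 12.4 CPM in Met_Bcat and 300 reads or 16.3 CPM in Bcat_Only, 1.31-fold lower (1.11 to 1.56) and well within 2-fold.

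The order of the 2 angiopoietins was therefore opposite in the libraries. Angpt2 reads per kilobase were 3.91 times those of Angpt1 in Met_Bcat and 0.566 times in Bcat_Only. This ratio was 6.90-fold higher in Met_Bcat (5.13 to 9.34), the widest of the ratios between members that are given here. Angpt1 was set against no other member, so the pair is not singled out among all possible pairs. Angpt2 lies within the span of Mcph1, a gene of the opposite strand (18595131 to 18803189) with 460 reads in Met_Bcat and 338 in Bcat_Only. The library kit keeps strand but the strand setting of the counting is not given in the sources used here, so the assignment of reads between Angpt2 and Mcph1 is uncertain. The predicted gene Gm17473 overlaps an end of Angpt1 on the opposite strand and had 0 reads in Met_Bcat and 1 in Bcat_Only.

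**Figure D2:**
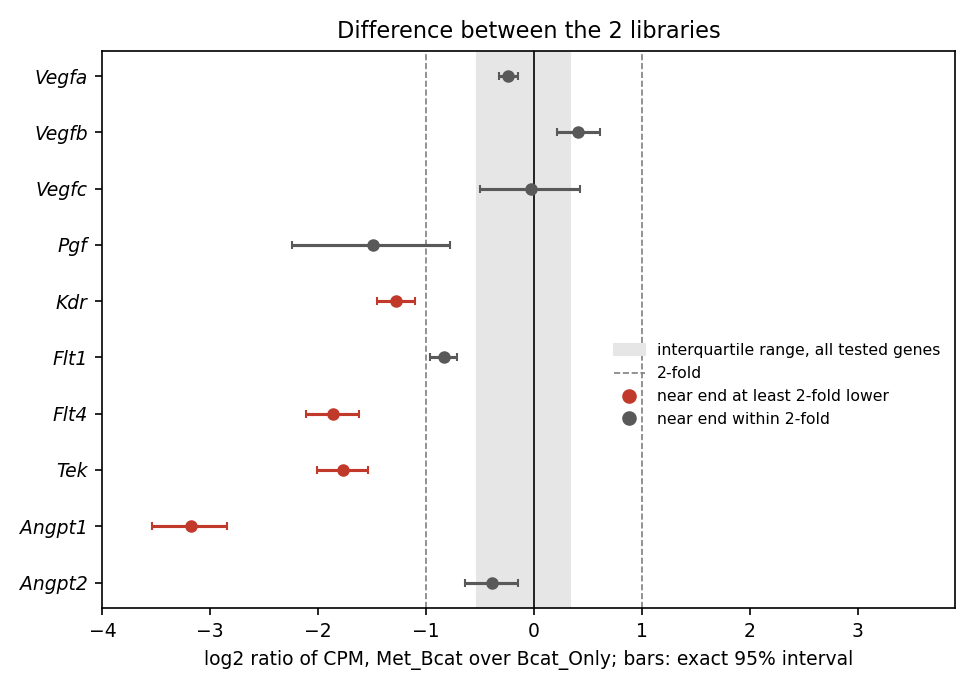
The log2 ratio of CPM in Met_Bcat over Bcat_Only for each gene, with bars for the exact 95% interval, the interquartile range of all tested genes in grey and dashed lines at 2-fold. Angpt1 lies farthest to the left at −3.18, Flt4, Tek and Kdr have whole intervals beyond the dashed line, and Vegfa, Vegfb, Vegfc and Angpt2 lie within 2-fold.

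Levels per exon length placed the genes in a different order in each library. In Met_Bcat, Vegfa stood at 24.3 RPKM and Vegfb at 15.2 RPKM, followed by Flt1 at 3.42 and Angpt2 at 3.36 RPKM, whose counting intervals overlapped. Kdr at 2.61, Vegfc at 2.15 and Tek at 2.04 RPKM came next in Met_Bcat, Vegfc overlapping both of its neighbours. Flt4 at 1.07, Angpt1 at 0.858 and Pgf at 0.720 RPKM closed the order there, each overlapping the next. In Bcat_Only, Vegfa stood at 28.6 RPKM and Vegfb at 11.4 RPKM, followed by Angpt1 at 7.79, Tek at 6.98, Kdr at 6.32 and Flt1 at 6.10 RPKM, each overlapping the next. Angpt2 at 4.41 and Flt4 at 3.9 RPKM, which overlapped, and Vegfc at 2.20 and Pgf at 2.02 RPKM, which also overlapped, came last in Bcat_Only. Angpt1 thus ranked number 9 of 10 in Met_Bcat and number 3 in Bcat_Only.

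The promoters of the 4 endothelial receptor genes are shown because 3 of them, all but Flt1, were lower together by the rule. RefSeq sequence was matched by symbol for 8 of the 10 genes, all but Angpt1 and Angpt2, and the 250 bases before the start are given 5′ to 3′ on the gene's strand, on GRCm38.p6, a build other than that of the count table. Capitals mark each GGAA or its reverse complement TTCC, the core that ETS factors bind, a family known for its role in endothelial genes. The windows are chr5:75978456-75978705 on the minus strand for Kdr, chr5:147726012-147726261 on the minus strand for Flt1, chr11:49609429-49609678 on the plus strand for Flt4 and chr4:94739039-94739288 on the plus strand for Tek.
Kdr: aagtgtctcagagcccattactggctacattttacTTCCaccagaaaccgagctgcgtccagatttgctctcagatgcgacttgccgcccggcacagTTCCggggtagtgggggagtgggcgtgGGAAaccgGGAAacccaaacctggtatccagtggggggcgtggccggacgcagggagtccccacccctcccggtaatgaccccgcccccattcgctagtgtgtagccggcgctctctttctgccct
Flt1: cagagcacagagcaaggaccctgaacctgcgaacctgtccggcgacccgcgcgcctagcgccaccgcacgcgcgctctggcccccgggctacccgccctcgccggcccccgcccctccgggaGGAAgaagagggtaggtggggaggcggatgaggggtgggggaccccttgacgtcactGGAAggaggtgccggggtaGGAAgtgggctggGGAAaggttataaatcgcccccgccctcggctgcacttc
Flt4: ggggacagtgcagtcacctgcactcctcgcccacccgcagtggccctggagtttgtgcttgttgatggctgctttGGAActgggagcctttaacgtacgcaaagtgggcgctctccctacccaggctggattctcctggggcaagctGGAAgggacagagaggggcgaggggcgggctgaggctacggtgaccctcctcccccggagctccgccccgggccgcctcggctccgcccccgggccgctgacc
Tek: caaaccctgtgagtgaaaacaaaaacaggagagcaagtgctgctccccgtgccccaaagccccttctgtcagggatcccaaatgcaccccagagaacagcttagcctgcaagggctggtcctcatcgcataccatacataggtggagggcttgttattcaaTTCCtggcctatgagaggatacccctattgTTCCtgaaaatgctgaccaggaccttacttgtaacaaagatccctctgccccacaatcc

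The core was found 4 times each in the windows of Kdr and Flt1 and 2 times each in those of Flt4 and Tek. At least 1 match is held by 93.4% of 32851 promoter windows of this length, with a median of 3, so the matches do not set these genes apart. The windows differed in base composition, with 16 CpG in Kdr, 23 in Flt1, 16 in Flt4 and 2 in Tek, beside a median of 6 over all windows. A TATAAA box, on either strand, began 31 bases before the start of Flt1 and was not found in the other windows of the 8 genes, beside 12.4% of all windows. The HIF core, searched as ACGTG or GCGTG on both strands, occurred 2 times in Kdr and once in Flt1 and not in Flt4 or Tek. It was present in 5 of the 10 windows of these genes (1 each of Kdr, Flt1, Pgf, Vegfa and Vegfb) and in 38.6% of all windows. Vegfa and Pgf, both on the minus strand, have more than 1 window each. For Vegfa the matches lay in the downstream window (chr17:46025164-46025413) and none in the upstream one (chr17:46032378-46032627). That downstream window lies inside the gene, past the upstream start. Its matches are therefore not matches before the upstream start of Vegfa. For Pgf the match lay in the upstream window. The TCF/LEF core, searched as CTTTGAA or CTTTGAT on both strands, was in none of the 10 windows of these genes and in 7.48% of all windows, and nothing follows from this about beta-catenin at these genes.

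Other ligands, co-receptors and regulators of the same pathways were mostly lower in Met_Bcat as well. Of 9 such genes, 6 were at least 2-fold lower and 0 higher, with a median log2 ratio of −1.37. Vegfd, in the table as Figf, a ligand of VEGFR3 that fibroblasts make in quantity, had 3 reads in Met_Bcat and 1285 in Bcat_Only, a 490-fold lower ratio (167 to 2380). Svep1, a matrix protein that binds angiopoietins, stood at 6.55 CPM in Met_Bcat and 381 CPM in Bcat_Only, 58.2-fold lower (49.2 to 69.4). Ccbe1, needed for the processing of VEGFC, stood at 4.18 CPM in Met_Bcat and 15.5 CPM in Bcat_Only, 3.72-fold lower (2.92 to 4.78).

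The neuropilin co-receptors of VEGF were lower by amounts close to that of Kdr. Nrp1 stood at 41.3 CPM in Met_Bcat and 116 CPM in Bcat_Only, 2.82-fold lower (2.60 to 3.05), and Nrp2 at 31.8 CPM in Met_Bcat and 82.8 CPM in Bcat_Only, 2.60-fold lower (2.38 to 2.86). Tie1, the partner receptor of TIE2, stood at 17.1 CPM in Met_Bcat and 42.9 CPM in Bcat_Only, 2.5-fold lower (2.21 to 2.84). The ratio of Tek to Tie1 per kilobase was 0.587 in Met_Bcat and 0.80 in Bcat_Only, 1.36-fold lower in Met_Bcat (1.11 to 1.68). Ptprb, the phosphatase that restrains TIE2, had a log2 ratio of −1.06 and did not pass the rule, nor did Angpt4 at −0.98 or Adamts3, a protease for VEGFC, at −0.82.

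Downstream of the receptors, 21 receptor-proximal signalling genes had a median of −0.22. Of these, 1 was higher and 3 were lower in Met_Bcat, close to the 4.42% higher and 14.6% lower among all genes tested, so the counts do not set the list apart. Prkca, a protein kinase C gene, stood at 161 CPM in Met_Bcat and 40.2 CPM in Bcat_Only, 4.0-fold higher (3.69 to 4.34). The lower genes were Dok2, an adaptor that binds TIE2 and is also expressed in blood cells, at 7.26-fold (5.19 to 10.4), Prkcb at 5.16-fold (4.27 to 6.27) and Nos3, the endothelial nitric oxide synthase gene, at 2.59-fold (2.0 to 3.37). Of 10 tip-cell and VEGF-induced genes, 1 was higher and 3 were lower, with a median of −1.0. Unc5b, a netrin receptor of tip cells and of some epithelia, was 2.45-fold higher (2.33 to 2.58), while Nid2, a basement membrane gene, was 6.58-fold (5.70 to 7.62), the chemokine receptor gene Cxcr4 3.85-fold (3.38 to 4.40) and Kcne3 3.76-fold lower (2.88 to 4.94).

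Among 13 measured angiogenesis inhibitors of 14 listed, 6 were lower and 0 higher, with a median of −1.02. They were led by Pf4, a platelet chemokine, at 41.9-fold (27.7 to 66.4), Serpinf1, which encodes PEDF, at 13.1-fold (12.1 to 14.3), and the thrombospondin gene Thbs2 at 9.78-fold (8.85 to 10.8), with Tnmd at 16.8-fold (8.57 to 37.5). Genes that low oxygen induces together with Vegfa were taken next. Of 21 hypoxia-induced genes, 0 were higher and 5 were lower, with a median of −0.60, beside 4.42% higher and 14.6% lower among all genes tested. Those lower included Ca9 at 8.01-fold (3.61 to 21.0), Egln3 at 3.47-fold (3.24 to 3.72), Ddit4 at 3.28-fold (2.99 to 3.60) and Ero1a at 3.0-fold (2.77 to 3.25). Of 9 HIF factors and regulators, 0 were higher and 2 were lower, with a median of −0.09. Those were Hif3a at 11.3-fold (5.19 to 29.1) and Arnt2 at 2.54-fold (2.10 to 3.09), while Hif1a and Epas1, both 1.89-fold lower by point estimate, did not pass the rule.

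Many endothelial markers were lower along with the receptor genes, and others were not. Of 23 markers, 12 were lower, 0 were higher and 11 did not pass, with a median of −1.15, and their summed level was 725 CPM in Met_Bcat and 1310 CPM in Bcat_Only, with none at 0 reads. Erg, an ETS factor of endothelium, was 4.14-fold lower (3.35 to 5.16), Cd93 3.88-fold (3.63 to 4.15), Ecscr 3.31-fold (2.96 to 3.71) and Mmrn2 2.95-fold lower (2.57 to 3.40). Those that did not pass included Eng, the endoglin gene, whose 154 CPM in Met_Bcat stood above the 99.2 CPM in Bcat_Only (1.55-fold, 1.46 to 1.64), and Cdh5, the VE-cadherin gene, at 96.6 CPM in Met_Bcat and 148 CPM in Bcat_Only. Clec14a, at 28.0 CPM in Met_Bcat and 26.7 CPM in Bcat_Only, and Gpihbp1, at 13.1 CPM in Met_Bcat and 12.4 CPM in Bcat_Only, had intervals that include no difference. Under TMM sizes 20 of the 23 ratios lay below equality and 3 above. Pecam1, the CD31 gene, was lower and had 1444 reads in Met_Bcat and 2749 in Bcat_Only. The ratio of Kdr to Pecam1 per kilobase was 0.164 in Met_Bcat and 0.183 in Bcat_Only, with an interval of 0.783 to 1.03 around a ratio of 0.899 between the libraries, which includes no difference.

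The other receptors differed from Pecam1 in both directions. Flt1 to Pecam1 stood at 0.215 in Met_Bcat and 0.176 in Bcat_Only, 1.22-fold higher in Met_Bcat (1.09 to 1.36). Tek to Pecam1 stood at 0.129 in Met_Bcat and 0.202 in Bcat_Only, 1.57-fold lower in Met_Bcat (1.32 to 1.87). All of the receptor ratios lay inside the spread of the 23 endothelial markers, where 15 markers had a lower ratio than Flt1, 10 a lower ratio than Kdr and 2 a lower ratio than Tek and than Flt4. Of the same markers 18 had a lower ratio than Angpt2, and 0 a lower ratio than Angpt1. The part of endothelial RNA content in these differences was not tested.

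**Figure D3:**
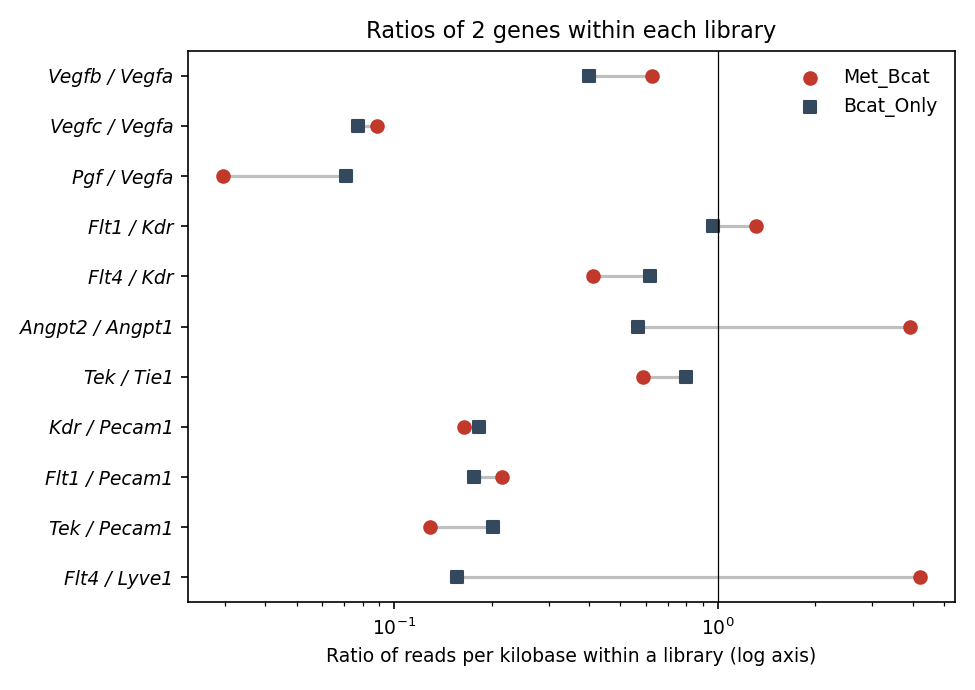
Ratio of reads per kilobase of the first to the second gene within each library, on a log axis, with Met_Bcat as red circles and Bcat_Only as dark squares. The ratio of Angpt2 to Angpt1 lies on opposite sides of 1 in the 2 libraries, and Kdr to Pecam1 is nearly alike.

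Most lymphatic markers were lower by more. Of 6 lymphatic endothelial markers, 5 were measured and 4 were lower, with a median of −4.49 on CPM plus 0.5 (−5.83 for ratios without the added 0.5) and a summed level of 73.0 CPM in Met_Bcat and 289 CPM in Bcat_Only. Lyve1, a hyaluronan receptor of lymphatic endothelium and of some macrophages, had 14 reads in Met_Bcat and 1200 in Bcat_Only, 98.1-fold lower (58.2 to 180). Reln was 67.5-fold (28.6 to 209), Mmrn1 56.8-fold (31.5 to 114) and Pdpn, also made by fibroblasts and basal epithelium, 11.9-fold lower (10.5 to 13.6). Ccl21a, which has near-identical copies, had 0 reads in Met_Bcat and 13 in Bcat_Only. The ratio of Flt4 to Lyve1 per kilobase was 4.21 in Met_Bcat and 0.156 in Bcat_Only, 26.9-fold higher in Met_Bcat (15.5 to 50.6). Flt4 was thus lower by less than Lyve1, and 4 of the 5 measured lymphatic markers had a lower ratio than Flt4. The exception was Prox1, at 59.4 CPM in Met_Bcat and 32.5 CPM in Bcat_Only.

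Markers of pericytes, smooth muscle and fibroblasts, cell types known to make ANGPT1, were in many cases lower in Met_Bcat too. Of 9 measured pericyte markers, 4 were lower and 0 higher, with a median of −1.16 and a summed level over all 10 listed of 243 CPM in Met_Bcat and 520 CPM in Bcat_Only. Those lower were Notch3 at 3.81-fold (3.27 to 4.45), Kcnj8 at 3.55-fold (2.95 to 4.29), Abcc9 at 3.28-fold (2.87 to 3.76) and Mcam at 2.63-fold (2.40 to 2.89), and 0 pericyte markers had a ratio as low as that of Angpt1. All 10 smooth muscle markers were lower, at a median of −3.38 (−4.0 without the added 0.5) and a sum of 123 CPM in Met_Bcat and 746 CPM in Bcat_Only. All 10 fibroblast markers were lower, at a median of −4.83 and a sum of 918 CPM in Met_Bcat and 24000 CPM in Bcat_Only. Angpt1 lay within the spread of both lists, with 6 of 10 smooth muscle and 6 of 10 fibroblast markers at a lower ratio. Platelet markers, of which 3 of 5 were measured and all 3 were lower, summed to 2.85 CPM in Met_Bcat and 54.7 CPM in Bcat_Only, with Gp9 at 0 reads in Met_Bcat. The part of these cell types in the level of Angpt1 was not tested.

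Markers of cells that can secrete VEGF ligands also differed. All 10 macrophage markers were lower, at a median of −2.19 (−2.20 for ratios without the added 0.5, Cd163 being set to 3 reads) and a sum of 372 CPM in Met_Bcat and 1910 CPM in Bcat_Only, and Cd163 was at 0 reads in Met_Bcat. All 10 neutrophil markers were lower, at a median of −5.37 (−5.93 in the same way for Elane) and a sum of 783 CPM in Met_Bcat and 7540 CPM in Bcat_Only, and Elane was at 0 reads in Met_Bcat. Most of the Met_Bcat sum was 1 gene, Ltf, at 651 CPM in Met_Bcat and 2570 CPM in Bcat_Only. Ltf was 3.96-fold lower (3.88 to 4.03), the smallest difference of the 10 neutrophil markers. Of 12 luminal epithelial markers, 4 were higher and 0 lower, with a median of 0.39 and a sum of 6420 CPM in Met_Bcat and 4010 CPM in Bcat_Only. Of 10 basal epithelial markers, 3 were higher and 1 lower, with a median of 0.65 and a sum of 2540 CPM in Met_Bcat and 1460 CPM in Bcat_Only. Among all genes tested, 4.42% were higher and 14.6% lower, so 1 lower of 10 does not set the basal list apart. Of the remaining lists, all 6 B and plasma cell markers and all 3 measured adipocyte markers of 6 were lower. The same held for 3 of 4 measured Schwann cell and nerve markers and all 5 seminal vesicle genes. Of 7 T cell markers, 2 were lower, with a median of −0.31. Cd3g, also a T cell marker, was 2.44-fold higher (1.92 to 3.12), short of the rule. By the rule, 0 genes of these lists were higher. The seminal vesicle genes, secretory genes of a gland that adjoins the prostate, summed to 4.74 CPM in Met_Bcat and 6830 CPM in Bcat_Only, a 1440-fold lower sum in Met_Bcat and the widest difference in summed level of the 21 lists. The part of adjoining tissue in the differences between these 2 libraries, those of the VEGF and angiopoietin genes included, was not tested. In tissue labelled prostate, no luminal marker was at 0 reads in either library. The share of Vegfa and Vegfb reads that came from each cell type was not tested.

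**Figure D4:**
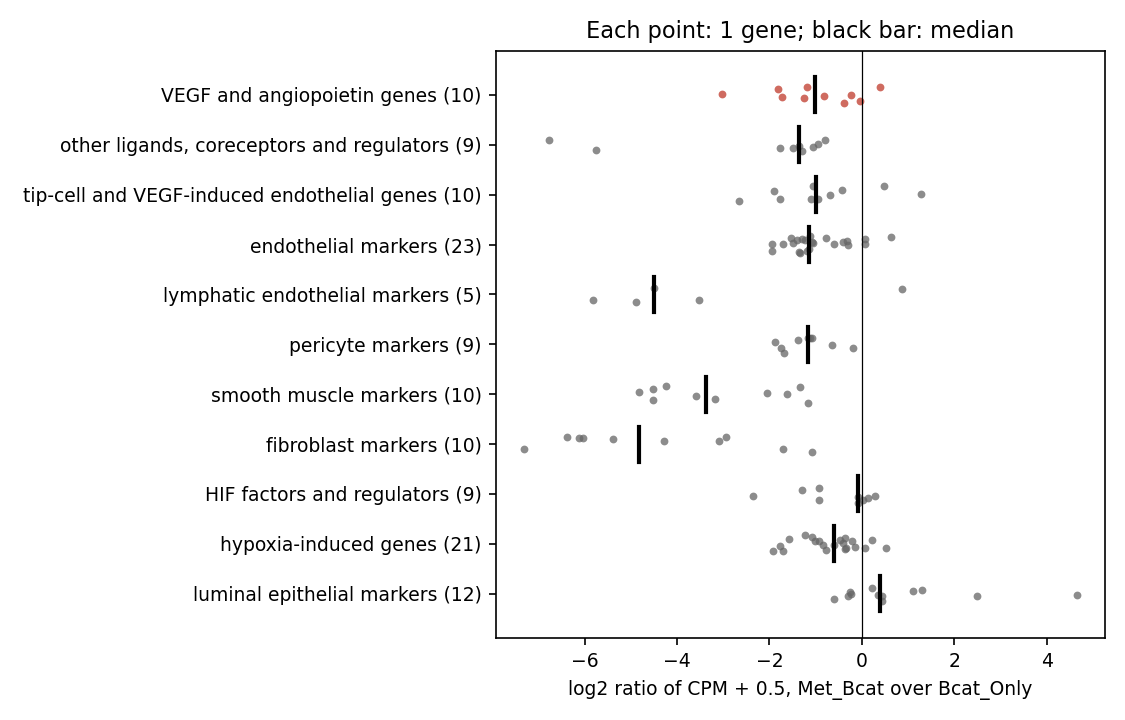
The log2 ratio of CPM plus 0.5 in Met_Bcat over Bcat_Only for the VEGF and angiopoietin genes in red and for the genes of 10 lists in grey, each point 1 gene that reached 1 CPM on average and each black bar the list's median. The VEGF and angiopoietin genes have a median of −1.0, with −0.13 for the VEGF ligands, −1.25 for the VEGF receptors and −1.72 for the angiopoietin system. Lists with medians near −1.0 are the tip-cell and VEGF-induced genes at −1.0, the endothelial markers at −1.15 and the pericyte markers at −1.16. The medians of the smooth muscle markers at −3.38 and the fibroblast markers at −4.83 lie farther to the left.

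The scaling bears on every small difference above. Total reads in place of TMM sizes moved all log2 ratios by 0.13. Scaling to the luminal epithelial markers moved them by −0.39, which added Pgf and Flt1 to the genes that were at least 2-fold lower. It also brought the log2 ratio of Vegfb to 0.02 (−0.18 to 0.22), so that its interval included no difference. Scaling to the endothelial markers moved them by 1.21, which left Angpt1 as the only one of the 10 genes at least 2-fold lower and made Vegfb at least 2-fold higher. Under that scaling the sign turned for Vegfa, Vegfc, Flt1 and Angpt2. Of all genes past the rule, 76.8% were lower in Met_Bcat under TMM sizes, 87.2% under the luminal scaling and 10.6% under the endothelial scaling.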

How the data were processed

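The authors deposited whole-number read counts per gene for 27376 genes, not normalised, with exon lengths and mm9 coordinates, per the file headers. Per the submitters' processing notes, the tools were HTSeq, edgeR and TopHat2 (version 2) and the build mm9. Their settings, strand included, are not stated there. Per the labels, 1 library was made per genotype from whole tumour tissue, with a stranded mRNA kit. Columns were matched to samples by the sample number in their headings.

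TMM (edgeR 4.0.16, R 4.3.3) gave size factors of 1.04763 for Met_Bcat and 0.954538 for Bcat_Only. The ratio of each gene received an exact Clopper-Pearson 95% interval conditional on its summed reads. The reads carry no molecular identifiers and PCR copies are not independent, so intervals cover counting error only. A count of 0 was set to a floor of 3 reads, 0.142 CPM in Met_Bcat and 0.163 CPM in Bcat_Only. No p-value was computed. The procedure was checked on data simulated with counting error alone. That check cannot speak to variation between animals, dissections or library preparations. Comparisons used the alternatives given at the end, among them DESeq2 1.42.0 size factors.

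The 10 genes and the 21 gene lists, with 216 genes, of which 216 were found, 7 by an older symbol or gene identifier, were chosen with earlier results of these data known. The genes named are the 10 members, up to 4 genes of each list by how far the near end of the interval lies from equality, the genes of the ratios and those that overlap a member. Nrp2, Ptprb, Angpt4, Adamts3, Prox1 and markers at 0 reads were named to complete their lists, after their values were seen. Eng, Cdh5, Clec14a and Gpihbp1 were also named after their values were seen, as endothelial markers that did not pass the rule. Ltf was named in the same way for its part in the neutrophil sum. Met and Ctnnb1 were named as the genes of the genotypes.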

Additional observations from a re-analysis of the deposited data

How the results depend on the processing

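No paired analysis was possible because each genotype has 1 library, and leaving out a library leaves no comparison. The count of 4 lower and 0 higher members became 1 lower and 1 higher under scaling to the endothelial markers, and 1 lower with a near end of at least 4-fold. The members' median log2 ratio became −1.34 under the luminal and 0.16 under the endothelial scaling. Over all genes, 635 were higher and 2102 lower. Those higher numbered 412 under the luminal scaling, 7639 under the endothelial scaling, 356 with a minimum of 10 CPM, 1166 at 1.5-fold and 251 at 4-fold. Those lower numbered 907 under the endothelial scaling, 1226 with a minimum of 10 CPM and 1086 at 4-fold. Under the endothelial scaling the medians of the tip-cell list (0.18) and of the angiogenesis inhibitors (0.19) turned in sign, which follows from the shift of that scaling. The other 36 of 49 recomputed counts and medians stayed within 1.5 times or within their interval. Of 50 recomputed member ratios 30 stayed within their main interval, and 0 of those past the rule turned in sign. Of 188 recomputed list medians 137 stayed between the medians of their genes' interval ends, 49 moved outside them (medians nearer to 0 than 1 on the log2 scale that changed sign are among these), and the other 2 are those of the tip-cell and inhibitor lists. The lymphatic median ran to −5.58 with 0.1 CPM added and −3.37 with 2 CPM added. Ratios of 2 genes within a library do not depend on the scaling. Depth limits Pgf and Vegfc most, with 24 and 86 reads in Met_Bcat and 59 and 77 in Bcat_Only.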
